A study of Homo sapiens with 6 samples.

Results

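Homeobox genes of 15 families were followed in the neuroblastoma line SK-N-BE(2), an established human cell line, after infection with a lentivirus carrying a hairpin against BRG1. They were chosen by symbol alone, as protein-coding genes of the HOXA, HOXB, HOXC, HOXD, NKX, LHX, PAX, IRX, DLX, MEIS, PBX, MSX, OTX and POU series and the sine oculis series (here SIX2 to SIX6). The gene table lists 115 such genes, and 95 of them had a named probe set, among 14883 named genes in all, and the other 20 are not analysed here. Only 1 of 11 HOXA genes, HOXA2, is among the 95, so the HOXA cluster is barely covered. The POU2AF coactivators carry a POU symbol but no POU domain and were left out, as were antisense RNAs and pseudogenes. A member was called expressed where its mean over the 6 arrays was at least 5 on the log2 scale, on which a difference of 1 is a doubling, and silent below that. By this line 32 members were expressed and 63 silent. The members nearest the line were LHX2 (5.01) and IRX3 (5.04) just above it, and HOXC12 (4.88) and NKX2-6 (4.86) just below it.

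Homeobox genes encode transcription factors that bind DNA through the homeodomain, and they set positional and cell identity during development. The HOX genes lie in 4 clusters whose order along the chromosome mirrors their order of use along the body axis, and their proteins gain specificity by binding DNA with the MEIS and PBX cofactors. MEIS, PBX and IRX proteins belong to the TALE class, named for extra residues in a loop of the homeodomain. BRG1, encoded by SMARCA4, drives the nucleosome-moving SWI/SNF complex with its ATPase, and its fly relative Brahma was found as a trithorax group factor that keeps homeotic genes active. The neuroblastoma lineage itself is defined by homeobox factors of other families, such as PHOX2A and ISL1.

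Total RNA (200 ng a sample) was taken 48 h after infection with either of 2 pLKO viruses, pLKO-NSC as the non-silencing control (3 samples) or pLKO-shBRG1 (3 samples), and each sample went onto 1 Affymetrix array. All cells came from the same line and were grown in Iscove's medium with serum and an insulin, transferrin and selenium supplement. The sample titles spell the hairpin shRG1 and the other labels shBRG1. The labels name a single BRG1 hairpin vector and speak of triplicate transductions without saying whether the cultures were separate, so p-values measure only how these samples spread, and that may be technical. Transcript levels of SMARCA4 were not analysed here, and the groups rest on the labels. Array medians lay between 3.77 and 3.84, and arrays correlated at 0.9907 to 0.9925 within a group and 0.9860 to 0.9881 between groups. Adrenergic neuroblast markers fitted the labelled line, with 14 of 15 measured genes at a level of at least 5. Their list mean on the log2 scale was 9.18 to 9.22 on the NSC arrays and 8.95 to 9.04 on the shBRG1 arrays. By the test described below 8 of the 15 fell (53.3%, against 11.7% of named genes at or above 5). In the other direction 1 rose (6.67%, against 17.1%). Of 13 mesenchymal markers 5 were at 5 or above (list mean 5.21 to 5.23 and 5.14 to 5.23). Of the 13, 1 was higher (7.69%, against 9.78% of all named genes) and 5 were lower (38.5%, against 7.19%). The higher gene, FN1, had the largest change of the list (1.44, adjusted p = 0.00041 by limma). The lower genes were FOSL2, SNAI2, IRF1, CD44 and MAML2, of which IRF1 (mean 3.51) and CD44 (4.73) were dim. IRF1, CD44 and MAML2 lost their calls with most of the single arrays left out. Of 5 Schwann and glial markers 1 was at 5 or above, SOX10. Their list mean was 4.18 to 4.22 on NSC and 4.0 to 4.03 on shBRG1 arrays, and 1 of the 5 fell (20.0%, against 7.19% of all named genes). The part of these marker shifts in the values of the homeobox genes was not tested. In bulk RNA, fewer cells of a type and less RNA per cell cannot be told apart.

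The clearest changes were a rise of IRX6, HOXC4 and MEIS1 and a fall of DLX5, DLX6 and MSX1. Each gene was tested with limma across all named genes, with p-values adjusted by the Benjamini-Hochberg method and a threshold of 0.05. By that test 13 of the 95 members passed (13.7%), where 17.0% of all named genes passed. In shBRG1 6 members were higher (6.32%, against 9.78% of all named genes) and 7 lower (7.37%, against 7.19%). Among expressed members 9 of 32 passed (28.1%), against 28.8% of all named genes at or above 5. Those 9 comprised 6 that rose (18.8%, against 17.1%) and 3 that fell (9.38%, against 11.7%). Of the silent members 4 of 63 passed (6.35%, against 4.52% of named genes below 5). All 4 were lower (against 2.41%) and 0 were higher (against 2.11%), with 1 silent member higher at an unadjusted limma p under 0.05. The share of homeobox genes past the threshold was thus near that of other genes of like brightness. The median change was -0.06 over all members and -0.09 over expressed ones, against 0.01 over all named genes and 0.06 over those at or above 5. The calls of IRX6, HOXC4, MEIS1, DLX5, DLX6 and MSX1 held in all 13 alternative fits. Leaving out 1 array brought the higher members from 6 to 3 (shBRG1 replicate 1) or 4 (any other), and the lower members from 7 to 3 (shBRG1 replicate 2) or 4 (any other).

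**Figure D1:**
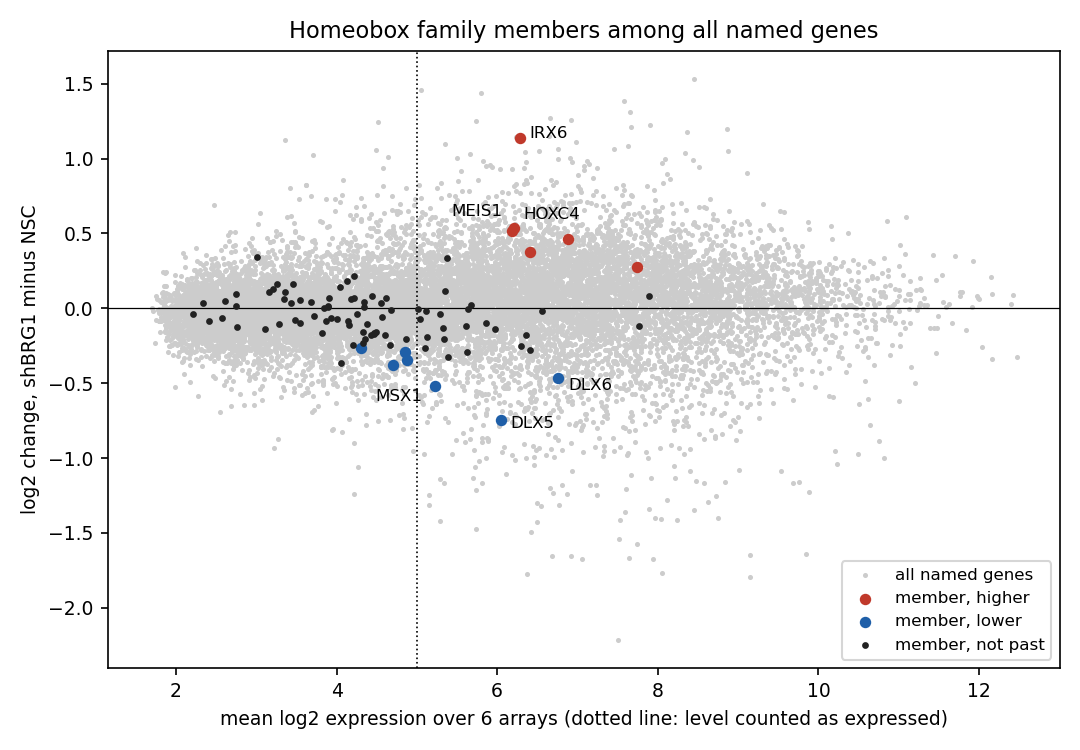
Change with the BRG1 hairpin (log2, shBRG1 minus NSC) against the mean log2 level over 6 arrays for all 14883 named genes (grey) and the 95 homeobox members, coloured by their call. The member with the largest rise is IRX6 (1.14) and that with the largest fall DLX5 (-0.75), and most members lie close to 0.

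Promoter sequences are shown for 4 of the 6 members with the largest changes, HOXC4, MEIS1, MSX1 and DLX6. The other 2, IRX6 and DLX5, had no 300-base promoter in the set used here. The 4 sequences are shown so that genes that rose can be set beside genes that fell. Each runs 5' to 3' in the direction of the gene, from 250 bases before to 50 after the start given by RefSeq on GRCh38.p14, in lower case with capitals marking TAAT or its reverse complement ATTA, the core letters bound by most homeodomains.
HOXC4, chr12:54016638-54016937, plus strand: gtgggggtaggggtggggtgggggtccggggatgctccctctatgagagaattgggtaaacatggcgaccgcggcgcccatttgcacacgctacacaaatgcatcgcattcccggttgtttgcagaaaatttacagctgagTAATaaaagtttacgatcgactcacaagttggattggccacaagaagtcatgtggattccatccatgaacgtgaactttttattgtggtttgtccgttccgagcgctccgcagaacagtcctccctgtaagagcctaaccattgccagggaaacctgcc
MEIS1, chr2:66434875-66435174, plus strand: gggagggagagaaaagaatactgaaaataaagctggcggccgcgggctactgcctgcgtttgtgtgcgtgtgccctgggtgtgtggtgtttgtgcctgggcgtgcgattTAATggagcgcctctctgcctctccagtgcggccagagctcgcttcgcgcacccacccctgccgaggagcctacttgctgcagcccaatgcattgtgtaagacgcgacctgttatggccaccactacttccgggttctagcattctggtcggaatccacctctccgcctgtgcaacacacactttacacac
MSX1, chr4:4859415-4859714, plus strand: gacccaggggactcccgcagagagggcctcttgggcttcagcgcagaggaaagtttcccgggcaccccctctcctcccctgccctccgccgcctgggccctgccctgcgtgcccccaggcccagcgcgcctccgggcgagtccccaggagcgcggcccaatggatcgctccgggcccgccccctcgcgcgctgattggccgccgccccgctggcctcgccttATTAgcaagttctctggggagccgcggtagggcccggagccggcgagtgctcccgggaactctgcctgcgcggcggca
DLX6, chr7:97005303-97005602, plus strand: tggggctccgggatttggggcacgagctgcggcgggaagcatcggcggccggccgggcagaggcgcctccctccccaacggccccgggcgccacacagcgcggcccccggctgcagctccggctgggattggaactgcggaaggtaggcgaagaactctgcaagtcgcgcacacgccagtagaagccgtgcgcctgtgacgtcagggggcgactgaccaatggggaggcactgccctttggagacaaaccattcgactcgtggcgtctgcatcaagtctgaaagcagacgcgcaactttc
HOXC4, MEIS1 and MSX1 each held 1 match to TAAT on either strand, and DLX6 held 0. The promoters of HOXC4 and MEIS1, which rose, held 15 and 18 CG pairs. Those of MSX1 and DLX6, which fell, held 31 and 30. These 4 genes were picked by their calls and are few, so the values are a description. The median was 24 over the 61 members with a promoter in the table and 23 over 9707 named protein-coding genes. Over the 8 such members past the threshold it was 28.5. TAAT occurred in 36 of those 61 promoters (59.0%), in 39.5% of the promoters of named protein-coding genes and in 51.0% of all 27305 promoters of this length. TGACAG, a MEIS-type motif, occurred in 11 of the 61 (18.0%, against 14.4% of named protein-coding genes and 15.9% of all promoters). TGATNNAT, a HOX-PBX type motif, occurred in 6 (9.84%, against 4.32% and 7.60%), counting both strands for each motif. In 22 promoters of expressed members TAAT occurred in 13, TGACAG in 5 and TGATNNAT in 0. For 8 promoters of members past the threshold these counts were 6, 0 and 1. The start listed for HOXC4 is also that of 2 other HOXC genes not analysed here, so its promoter is a shared one. These matches describe the letters in a short window at 1 listed start and say nothing of binding.

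IRX6, an Iroquois gene of the TALE class, showed the largest rise of all members. It read 5.67, 5.77 and 5.70 on the NSC arrays and 6.70, 7.14 and 6.71 on the shBRG1 arrays. The lowest shBRG1 array stood well above the highest NSC array. The rise was 2.20-fold (log2 change 1.14, 95% interval 0.84 to 1.43, adjusted p = 0.0016 by limma), and only 15 of 14883 named genes rose more. IRX3 and IRX5 precede IRX6 as the next protein-coding genes on chromosome 16, and both act in patterning of heart and nervous system. IRX5 read 6.08, 5.84 and 5.83 on NSC and 5.70, 5.83 and 5.92 on shBRG1 arrays, with overlapping groups (change -0.10, interval -0.33 to 0.13). IRX3, near the line between expressed and silent, had a difference of -0.07 (interval -0.36 to 0.21). The other Iroquois genes, IRX1, IRX2 and IRX4, were silent (means 4.21 to 4.57) with changes of -0.16 to 0.07.

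MEIS1 and MEIS2, the TALE cofactors that bind DNA with HOX and PBX proteins, both rose. MEIS1 read 6.01, 5.96 and 5.79 on NSC arrays and 6.29, 6.51 and 6.51 on shBRG1 arrays, without overlap. Its rise was 1.43-fold (0.52, interval 0.30 to 0.74, adjusted p = 0.0098 by limma). MEIS2 went from 7.58, 7.63 and 7.59 to 7.88, 7.93 and 7.81, a tight but small rise of 1.21-fold (0.27, interval 0.12 to 0.43, adjusted p = 0.029 by limma). MEIS2 did not pass with any 1 of the 6 arrays left out, after cyclic loess or with its probe sets averaged. Its adjusted p by limma spanned 0.0043 to 0.15. Its dimmer probe set (mean 4.23) had a difference of 0.11. MEIS3 spread widely in NSC (5.52, 4.79 and 5.30), overlapped shBRG1 (5.70, 5.42 and 5.50) and did not pass (0.34, interval -0.08 to 0.76, adjusted p = 0.26 by limma). All 3 MEIS genes were thus above 0 in change, with 2 past the threshold.

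PBX proteins are the other TALE partners of HOX factors. PBX2 read 6.13, 6.28 and 6.26 on NSC and 6.62, 6.68 and 6.49 on shBRG1 arrays, again without overlap. The rise was 1.30-fold (0.37, interval 0.19 to 0.56, adjusted p = 0.019 by limma). Its other 2 probe sets changed by 0.38 and 0.36. All 3 had nearly the same mean level (6.41, 6.40 and 6.39). Whether they share probes was not tested, so they do not count as separate evidence. PBX2 no longer passed when NSC array 1, shBRG1 array 1 or shBRG1 array 2 was left out, and its adjusted p spanned 0.0044 to 0.065. PBX3 overlapped between groups, from 6.47, 6.45 and 6.77 to 6.45, 6.60 and 6.59, with a change of -0.02 (interval -0.26 to 0.22). PBX4 was silent (mean 4.47). The IRX, MEIS and PBX families, part of the TALE class, were grouped after their values were seen. Of their 12 members 4 rose (33.3%, against 9.78% of all named genes and 17.1% of those at or above 5). In the other direction 0 fell (against 7.19% and 11.7%), also at an unadjusted limma p under 0.05. This grouping was picked with these calls in view, so the counts are a description. PKNOX1, a TALE gene outside these families that also pairs with PBX, fell (-0.43, adjusted p = 0.020 by limma). It did not pass with NSC array 1 or 3 left out (adjusted p up to 0.060).

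**Figure D2:**
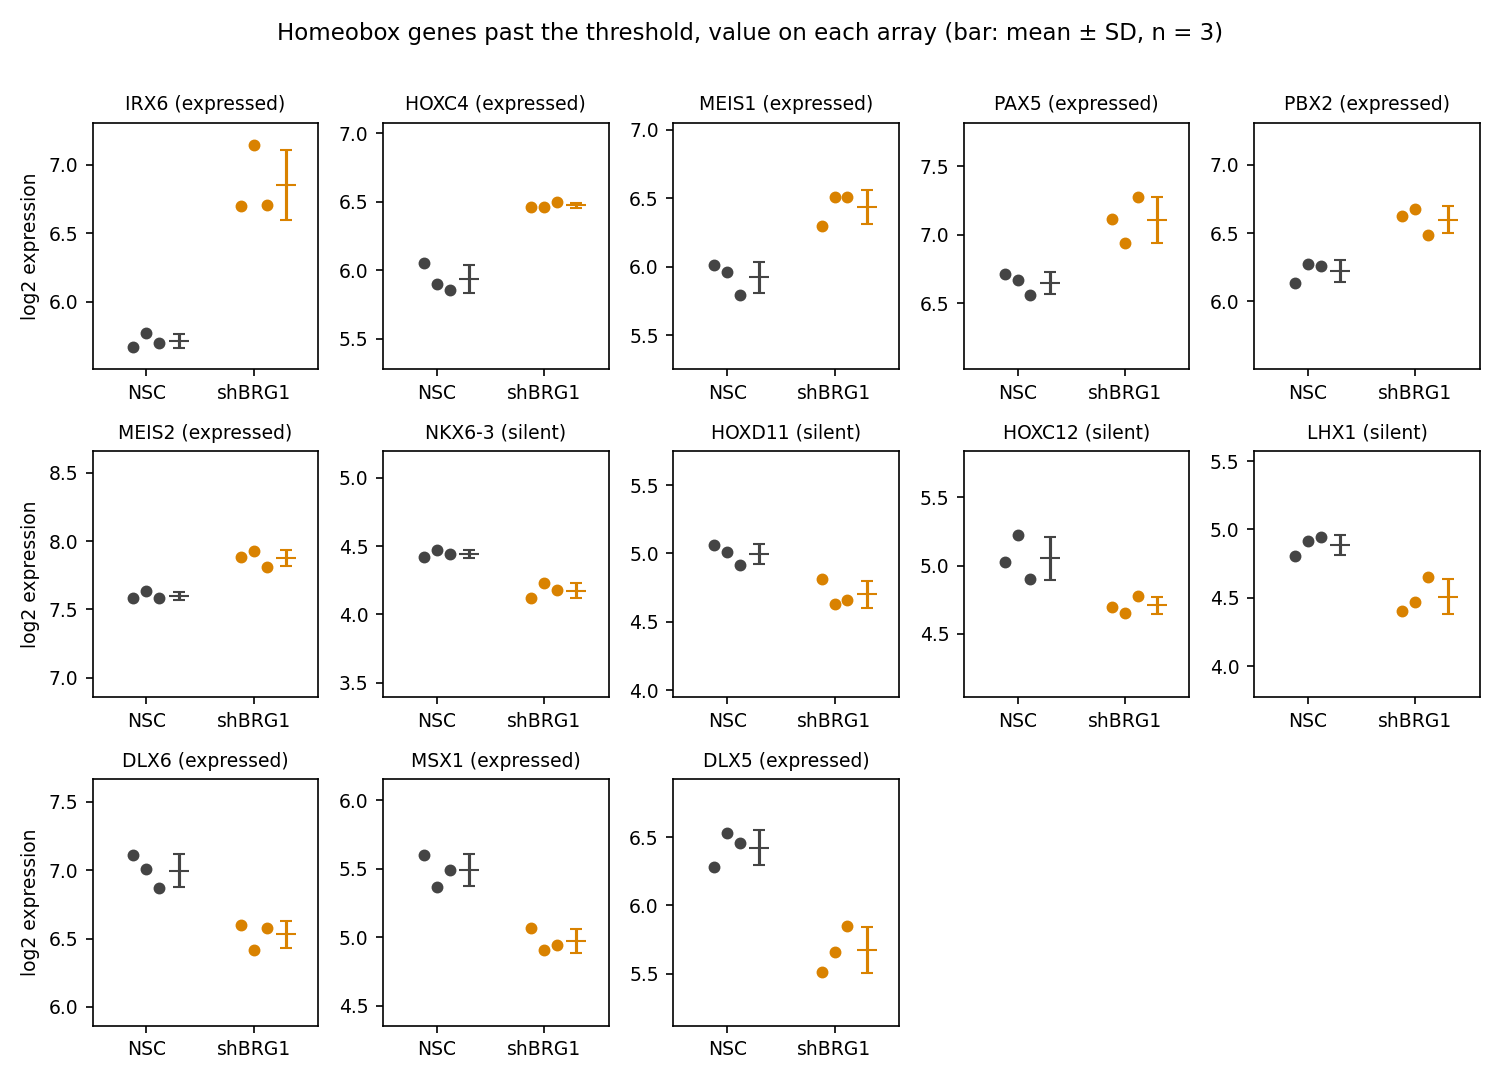
Log2 expression on each array of the 13 members past the threshold, in order of their change, with points for single arrays and a bar for the mean ± SD (n = 3 a group). All panels span the same height on the log2 scale, and NSC and shBRG1 points do not overlap in any of them.

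DLX5 and DLX6, neighbours on chromosome 7 that act in craniofacial bone and in forebrain interneurons, both fell. DLX5 read 6.28, 6.53 and 6.46 on NSC arrays and 5.51, 5.66 and 5.85 on shBRG1 arrays. Every shBRG1 array lay below every NSC array, and the fall was 1.68-fold (-0.75, interval -1.0 to -0.49, adjusted p = 0.0042 by limma). Among all named genes 180 fell more than DLX5. DLX6 read 7.11, 7.01 and 6.87 and then 6.60, 6.42 and 6.58, a 1.38-fold fall without overlap (-0.46, interval -0.67 to -0.25, adjusted p = 0.012 by limma). DLX6-AS1, the antisense RNA of this locus, was dim (3.78, 3.84 and 3.81 on NSC, 3.90, 4.30 and 4.04 on shBRG1) and moved the other way without passing (0.27, adjusted p = 0.13 by limma). The other pairs, DLX1 with DLX2 and DLX3 with DLX4, were silent (means 3.48 to 4.66), with changes of -0.24 to 0.08. In all, 32 pairs of members were next to each other among protein-coding genes, 8 of them with both genes expressed. DLX5 with DLX6 was the single pair in which both genes passed, and in 5 pairs 1 gene passed. No such count was made over neighbouring pairs of all named genes, so these counts are a description.

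MSX1, a BMP-responsive repressor of neural crest and craniofacial development, fell. Its values were 5.60, 5.37 and 5.49 on NSC and 5.07, 4.90 and 4.94 on shBRG1 arrays. The groups did not overlap, and the shBRG1 values lay about the line between expressed and silent. The fall was 1.43-fold (-0.52, interval -0.72 to -0.32, adjusted p = 0.0072 by limma). MSX2 ranged from 4.92 to 5.42 on NSC and from 4.91 to 5.25 on shBRG1 arrays, with a change of -0.02 (interval -0.36 to 0.32).

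Most HOX genes did not pass the test, and HOXC4 was the exception that rose. Of 27 measured HOX genes 1 rose, 2 fell and 24 did not pass, and their median change was 0.01. That is 11.1% past the threshold, against 17.0% of all named genes. Most of the 27 were silent, and 28.8% of named genes at or above 5 but 4.52% of those below it passed. The lower HOX share is thus no sign that HOX genes were spared. Expressed members lay in HOXC (HOXC4, HOXC8, HOXC9 and HOXC10) and HOXD (HOXD3, HOXD4 and HOXD8). HOXC4 read 6.05, 5.90 and 5.86 on NSC and 6.46, 6.46 and 6.49 on shBRG1 arrays. The shBRG1 arrays were nearly identical and all above NSC, a 1.45-fold difference (0.54, interval 0.36 to 0.71, adjusted p = 0.0036 by limma). The annotated span of HOXC4 overlaps those 2 other HOXC genes, so its signal is uncertain where exons are shared. HOXC4 stands at the end of the cluster used in anterior parts of the trunk.

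The next measured gene, HOXC8, read 7.93, 7.78 and 7.84 on NSC and 7.92, 7.92 and 7.96 on shBRG1 arrays. Those groups overlapped, and the interval of its change (0.08) ran from -0.08 to 0.24. HOXC9, which has been studied in neuroblastoma differentiation, went from 5.72, 5.63 and 5.67 to 5.51, 5.69 and 5.47 (-0.11, interval -0.30 to 0.07). HOXC10 spread between 5.46 and 6.01 on NSC and between 5.29 and 5.56 on shBRG1 arrays (-0.29, interval -0.63 to 0.05). HOXC11 (3.72) and HOXC13 (4.04) were silent on the mean of 6 arrays. HOXC12, just below the line, read 5.03, 5.22 and 4.91 on NSC and 4.70, 4.65 and 4.78 on shBRG1 arrays and fell (-0.34, adjusted p = 0.046 by limma). With trend and robust options, with array weights and with any array but NSC 3 left out it did not pass, and its adjusted p spanned 0.035 to 0.13.

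HOXD3, HOXD4 and HOXD8 overlapped between groups. HOXD3 read 5.36, 5.14 and 5.38 on NSC and 5.36, 5.48 and 5.40 on shBRG1 arrays (0.12, interval -0.08 to 0.32). HOXD8 read 5.36, 5.30 and 5.25 and then 5.36, 5.20 and 5.24 (-0.04, interval -0.21 to 0.13). HOXD4 read 5.50, 5.40 and 5.42 and then 5.45, 5.17 and 5.09 (-0.20, interval -0.44 to 0.03), while its second probe set (mean 4.96) had a change of 0.18, so its direction depends on the probe set. HOXD11, a limb and kidney patterning gene below the line, fell from 5.06, 5.01 and 4.91 to 4.82, 4.63 and 4.66 (-0.29, adjusted p = 0.045 by limma). After centring, with trend and robust options and with any array but shBRG1 1 left out it did not pass (adjusted p 0.035 to 0.13). The other silent HOXD genes had means of 3.01 to 4.68 and changes of -0.01 to 0.34.

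All 10 HOXB genes were silent, with means of 2.41 to 4.36 and changes of -0.21 to 0.22. By limma 0 of them passed, where 4.52% of named genes below 5 did, and 2 had an unadjusted p under 0.05. HOXA2 was silent too (2.74, change 0.10). Non-coding RNAs of the clusters stayed dim: of 14 measured, 1 had a mean of at least 5 (HOXC13-AS, 5.07). By limma 0 of the 14 passed (against 4.52% of named genes below 5 and 28.8% of those at or above it). At an unadjusted p under 0.05 there was 1 (MIR196A1, 0.29, adjusted p = 0.096 by limma). HOTAIR, which lies in HOXC, had a mean of 3.46 and a change of -0.08.

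**Figure D3:**
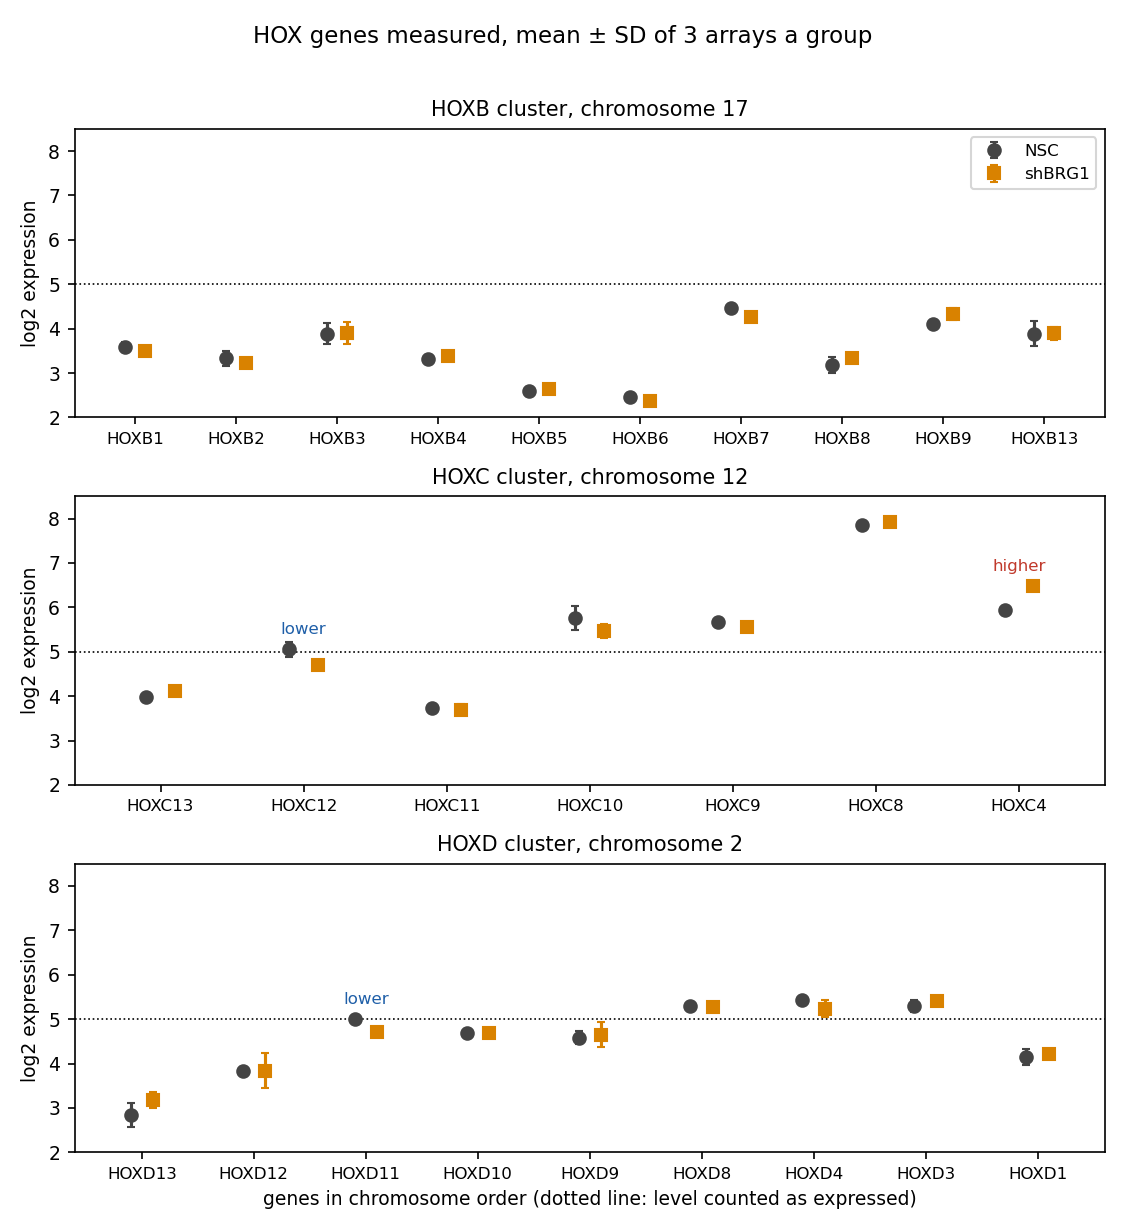
Mean ± SD of log2 expression (n = 3 a group) of the measured HOXB, HOXC and HOXD genes in chromosome order, with NSC as circles, shBRG1 as squares and the level of 5 as a dotted line. HOXB stays below the line throughout, and the words higher and lower mark HOXC4, HOXC12 and HOXD11, which passed the threshold.

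PAX5, the factor that commits cells to the B lineage, was the single PAX gene of 8 at or above 5. PAX proteins bind DNA through a paired domain, and some, PAX5 among them, lack a complete homeodomain. It read 6.71, 6.67 and 6.56 on NSC and 7.11, 6.94 and 7.27 on shBRG1 arrays. Its groups did not overlap, and the rise was 1.38-fold (0.46, interval 0.23 to 0.69, adjusted p = 0.018 by limma). PAX5 did not pass with NSC array 2 or 3, or shBRG1 array 1 or 3, left out (adjusted p 0.0027 to 0.060). The 7 silent PAX genes had means of 2.76 to 4.49 and changes of -0.16 to 0.11.

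Among LIM-homeobox genes of the LHX series, which pair a homeodomain with protein-binding LIM domains, LHX1 passed and was lower. It was below the line on all arrays, at 4.80, 4.91 and 4.94 on NSC and 4.40, 4.47 and 4.65 on shBRG1 (-0.38, interval -0.58 to -0.18, adjusted p = 0.023 by limma). LHX1, known from the head organiser and kidney, did not pass with NSC array 2 or 3, or shBRG1 array 1 or 2, left out (adjusted p 0.022 to 0.078). LHX9, a gonad and brain factor, read 6.66, 6.56 and 6.43 on NSC and 6.40, 6.28 and 6.13 on shBRG1 arrays. Its groups did not overlap, but it did not pass (-0.28, interval -0.50 to -0.05, adjusted p = 0.093 by limma) except with dim genes left out (0.035). LHX3, a pituitary and motor neuron factor, read 6.38, 6.56 and 6.32 and then 6.15, 6.05 and 6.31, nearly touching (-0.25, adjusted p = 0.13 by limma). LHX2 had a change of -0.00 (interval -0.24 to 0.24). ISL1, a bright LIM-homeobox gene outside the LHX series (mean 9.71), also fell (-0.44, adjusted p = 0.0086 by limma). With the mean of its probe sets ISL1 did not pass (adjusted p = 0.053 by limma). ISL2, also outside the series, did not pass (-0.13, adjusted p = 0.57 by limma).

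NKX genes were mostly silent, 9 of 12, and 1 of the 12 passed. Of the 12 changes 11 were below 0, as were 4130 of 7260 named genes below 5 and 7271 of all 14883. NKX6-3, a stomach factor, passed at low level, from 4.42, 4.47 and 4.44 to 4.12, 4.23 and 4.18 (-0.27, interval -0.42 to -0.11, adjusted p = 0.031 by limma). It did not pass with any 1 of the 6 arrays left out, nor after centring, nor under limma's trend and robust fit (adjusted p 0.027 to 0.10). Of the expressed NKX genes, NKX6-1, a factor of beta cells and motor neuron progenitors, ranged from 6.38 to 6.53 on NSC and from 6.17 to 6.36 on shBRG1 arrays, narrowly apart (-0.18, interval -0.36 to 0.01, adjusted p = 0.19 by limma). NKX6-2, known from oligodendrocytes, had a change of -0.14 (interval -0.36 to 0.09) and NKX1-2 one of -0.26 (interval -0.62 to 0.10).

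No sine oculis gene (SIX2 to SIX6) and no POU gene passed. By limma 0 of 5 and 0 of 13 did, and 0 had an unadjusted p under 0.05. Of all named genes 28.8% at or above 5 and 4.52% below it passed, and 2 of the 5 and 10 of the 13 were below it. SIX3, a forebrain and eye factor, read 7.83, 7.88 and 7.79 on NSC and 7.68, 7.74 and 7.71 on shBRG1 arrays. These groups were narrowly apart, with a change of -0.12 (interval -0.27 to 0.03, adjusted p = 0.27 by limma). SIX2, a kidney progenitor factor, had a change of -0.13 (interval -0.41 to 0.14) and SIX5 one of -0.01 (interval -0.25 to 0.24). POU4F1, a sensory neuron factor, had a difference of -0.19 (interval -0.41 to 0.02), and POU6F1 one of 0.02 (interval -0.34 to 0.39). POU4F3, a factor of inner ear hair cells, had a difference of -0.33 (interval -0.66 to 0.01, adjusted p = 0.17 by limma) and passed without NSC replicate 2 (0.041). POU5F1 was silent (4.34), and since near-identical pseudogene copies were measured beside it (POU5F1P3 at 6.61 and POU5F1P4 at 6.33) its level is uncertain. OTX1 (3.82) and OTX2 (2.58) were silent, with changes of -0.16 and -0.06.

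**Figure D4:**
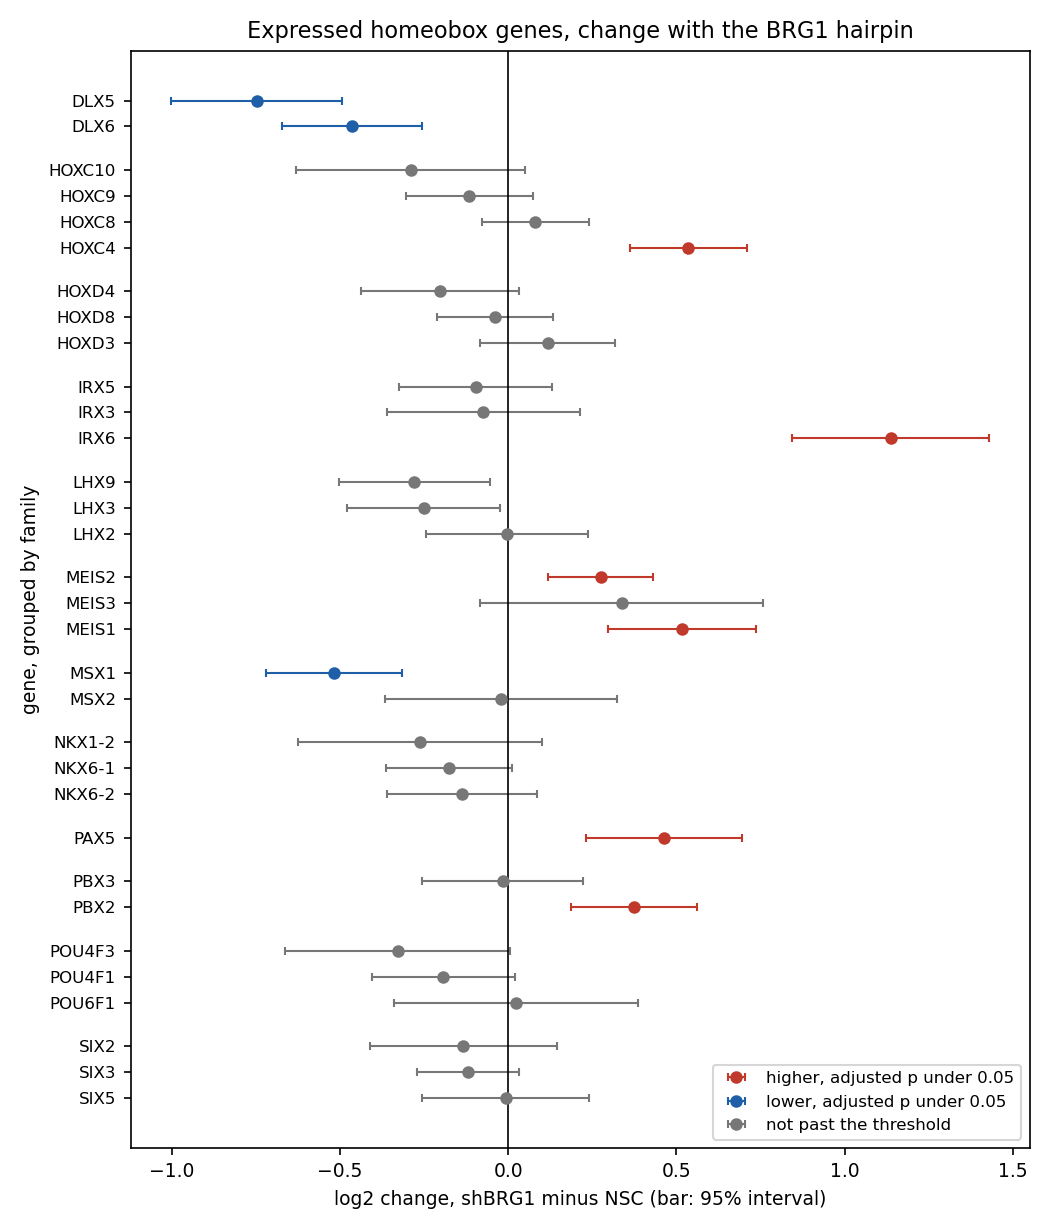
Log2 change (shBRG1 minus NSC) of the 32 expressed members with 95% intervals from the limma fit, grouped by family. Intervals clear of 0 on the right belong to IRX6, HOXC4, MEIS1, PAX5, PBX2 and MEIS2, and on the left to DLX5, DLX6 and MSX1 among those past the threshold, with LHX9 and LHX3 clear of 0 before adjustment only.

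Whether members of a family changed differently was asked for each expressed member past the threshold against each expressed member of its family that was not, 9 comparisons chosen after the calls were known. IRX6 rose by 1.23 more than IRX5 and by 1.21 more than IRX3 on the log2 scale. HOXC4 rose by 0.46 more than HOXC8, 0.65 more than HOXC9 and 0.83 more than HOXC10, and PBX2 by 0.39 more than PBX3. In these 6 the within-array difference did not overlap between groups. MSX1 and MSX2 differed by -0.50, and MEIS1 and MEIS2 differed from MEIS3 by 0.18 and -0.06, all 3 with overlap. An exact permutation test of 3 against 3 arrays cannot give a p under 0.1, and the pairs were picked for their calls, so the differences stand as a description.

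Among silent members, arrays that separated by group did so mostly downward. The 59 silent members that did not pass had differences of -0.36 (POU2F2) to 0.34 (HOXD13). The 3 shBRG1 values lay entirely below NSC for 12 of 63 silent members (19.0%, against 9.60% of named genes below 5) and entirely above for 1 (1.59%, against 6.49%). That member was HOXC13, with a change of 0.14. Over all 95 members the groups were apart for 26 (27.4%, against 35.5% of all named genes), 19 lower (20.0%, against 15.3%) and 7 higher (7.37%, against 20.3%). Of the 32 expressed members the groups were apart for 13 (40.6%, against 54.0% of named genes at or above 5), 6 higher (18.8%, against 33.4%) and 7 lower (21.9%, against 20.6%). Over all named genes 1455 were higher and 1070 lower, a split that turned to 1212 and 1329 after cyclic loess, under which 5 members rose and 7 fell.

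Homeobox genes outside the 15 families fell at a share near that of all named genes and rose at a lower one. Of 93 measured, 7 fell (7.53%, against 7.19% of all named genes) and 1 rose (1.08%, against 9.78%). Of the 32 at or above 5, 5 fell (15.6%, against 11.7%) and 1 rose (3.12%, against 17.1%). Those that rose numbered 3 after centring, with array weights or under limma's trend and robust fit. The 4 with the smallest p fell, PHOX2A with a log2 change of -0.51 (adjusted p = 0.0033 by limma), ISL1 -0.44 (0.0086), ZEB1 -0.35 (0.010) and ZFHX3 -0.41 (0.012). PHOX2A and ISL1 are lineage factors of sympathetic neuroblasts, ZEB1 a repressor of epithelial genes and ZFHX3 a neuronal zinc finger homeodomain factor. ISL1 did not pass with the mean of its probe sets (adjusted p = 0.053). The gene that rose was TLX2 (0.26, adjusted p = 0.045 by limma), which did not pass with any 1 array left out or after cyclic loess (up to 0.14), and 7 had an unadjusted p under 0.05 with a rise.

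Among regulators that act on HOX clusters, Polycomb repressors and trithorax activators, 6 of 32 measured rose and 3 fell. The H3K27 demethylase KDM6B rose 2.09-fold (1.07, adjusted p = 0.00026 by limma), and the H3K4 methyltransferase KMT2D 1.55-fold (0.63, 0.0012). The Polycomb genes CBX6 (1.06, adjusted p = 0.0013) and PCGF5 (-1.21, 0.00043) moved in opposite directions. The share of the list past the threshold, 28.1%, stands beside 28.8% for all named genes at or above 5. Retinoic acid, a known inducer of HOX genes, was covered by 5 of 21 listed genes. Of these 5, 1 rose (20.0%, against 9.78% of all named genes) and 2 fell (40.0%, against 7.19%). The retinol dehydrogenase RDH10 rose (0.66, adjusted p = 0.0022), whereas the retinoic acid binding protein CRABP2 (-0.53, 0.0034) and the retinol transporter STRA6 (-0.31, 0.028) fell. STRA6 did not pass after centring or with any array but shBRG1 2 left out (up to 0.085).

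The EYA and DACH proteins act as partners of sine oculis proteins such as SIX2. Of 6 measured, 1 rose (16.7%, against 9.78% of all named genes) and 1 fell (16.7%, against 7.19%). EYA3 rose (0.33, adjusted p = 0.042 by limma) and EYA2, a dim gene (mean 3.93), fell (-0.36, 0.041). EYA3 did not pass with any array but NSC 1 left out, after cyclic loess or with array weights (up to 0.12). EYA2 did not pass with any array but shBRG1 3 left out or under the trend and robust fit (up to 0.11). EYA1 (-0.20, adjusted p = 0.073) and EYA4 (0.24, adjusted p = 0.076) did not pass, though both did under limma's trend and robust fit and in a fit without dim genes, and EYA1 also after cyclic loess.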

How the data were processed

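The authors deposited log2 expression, 1 value for each probe set on each of 6 arrays. The submitters' processing notes name R 3.1.0 with oligo 1.27 and limma 3.19, and RMA. The probes' genome build was not given in the sources used here. RMA brings all arrays to a common distribution, which hides any shift shared by all genes and compresses changes of dim probe sets. Of 52299 probe sets 15828 carried 1 gene symbol, 0 several and 36471 none. All 15828 symbols were matched to the RefSeq gene table of GRCh38.p14 by gene identifier, and the probe set with the highest mean over 6 arrays stood for each of 14883 genes, which set aside 945. No filter on dim genes was applied.

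Genes were tested with R 4.3.3 and limma 3.58.1 (eBayes after lmFit, two-sided, no covariates), and changes are shBRG1 minus NSC. Precision is limited by the number of arrays, with a median standard error of 0.10 over members. Within-array differences between members of a family were compared by exact permutation in scipy 1.17.1, and figures drawn with matplotlib 3.10.9. The text names each member past the threshold, each expressed member, and up to 4 genes of each list by smallest p. PKNOX1, TLX2, ISL2, SOX10, CD44, MAML2, HOTAIR, DLX6-AS1, HOXC13-AS, the pseudogenes and the other silent members were named after their values were seen. The members and lists were chosen with earlier results of these data known. Alternatives were centring, cyclic loess, leaving out dim genes, averaging probe sets, trend and robust options, array weights, leaving out each array, a block on the replicate number, an adjusted p of 0.01, and levels of 4 and 6 for expressed genes. The code was also tested on simulated data. Gene positions serve only for order.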

Additional observations from a re-analysis of the deposited data

How the results depend on the processing

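With 3 arrays a group the small changes are the ones that depend on the processing, and the cause of the shifts below was not tested. Of 462 values of single members under the alternatives 46 lost their call, 2 gained one and 0 turned direction with a call on either side. The 462 cover 36 members, of which only 13 had a call to lose, so 46 of 462 understates the loss. Of these 13, 6 kept the call in every alternative fit, and 5 or 6 lost it with any 1 array left out. At an adjusted p of 0.01, 563 of all named genes were higher and 523 lower, 3 members were higher (all expressed) and 2 lower, and 0 other homeobox genes were higher and 2 lower. With dim genes left out, so that 4 of the 13 were not tested, or with trend and robust options, 4 members were lower. Other homeobox genes that rose numbered 2 with dim genes left out and 3 after centring, with array weights or with trend and robust options. With a level of 4 for expressed genes there were 65 expressed members, 7 of them lower, and with a level of 6 there were 14. Leaving out single arrays gave 840 to 1055 higher and 694 to 859 lower among all named genes, 3 to 4 members higher and 3 to 4 lower. Among expressed members it gave 3 to 4 higher and 3 to 4 lower, and among other homeobox genes 0 to 1 higher and 5 to 7 lower. Where that count was 0, limma had 4 to 5 higher at an unadjusted p under 0.05.

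Samples of the same replicate number did not deviate together (correlations of -0.14 to -0.03), so the numbers were not taken as pairs, and 0 of 3 pairs reached 0.1. With the replicate number as a block 870 of all named genes were higher, 4 members were higher and 4 lower, and 0 other homeobox genes were higher, with 5 at an unadjusted p under 0.05 by limma. The members that did not pass with it were PBX2 (adjusted p = 0.053), MEIS2 (0.089), HOXC12 (0.10), HOXD11 (0.081) and NKX6-3 (0.094).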
